A study of Mus musculus with 6 samples.

Results

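The 77 nuclear genes for mitochondrial ribosomal proteins, 49 of the large subunit (Mrpl-named) and 28 of the small subunit (Mrps-named), were described among the 22413 genes of a bulk RNA sequencing table from adult mouse retinal ganglion cells. A gene was a member when its symbol was Mrpl or Mrps followed by a number and at most 1 letter, a rule that uses no measured value, though the set was picked with earlier results of these data known. Subunits follow the names throughout, so Mrps18a, Mrps30 and Mrps36 count as small subunit although their place differs from their name. Adult mice of genotype Tgfbr1flx/flx;Vglut2Cre/+ gave 3 libraries, called Cre, and they were compared with 3 libraries from Tgfbr1flx/flx;Vglut2+/+ mice, called no Cre. Both groups carried the floxed Tgfbr1 alleles, so they differ in the labels by the Cre allele alone. Tgfbr1 encodes a receptor through which cells sense TGF-beta, and the Vglut2Cre allele expresses Cre recombinase where the vesicular glutamate transporter gene Slc17a6 is active, which is not limited to ganglion cells. The labels do not say whether a library was 1 animal or a pool, nor how the cells were isolated, so p-values measure the spread between these libraries, which may be technical. The comparison asks how a Cre allele changes expression when Tgfbr1 is floxed.

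Mitochondria have their own ribosome, which translates the few respiratory chain and ATP synthase subunits that mitochondrial DNA encodes. Its ribosomal RNAs come from mitochondrial DNA, whereas its proteins are made in the cytosol from nuclear genes and imported. Many of them have counterparts in bacterial ribosomes and others are specific to mitochondria. Ganglion cells, whose axons form the optic nerve, depend strongly on mitochondrial respiration, and inherited defects of mitochondria are a known cause of optic neuropathy.

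The libraries held 8098891 to 21126291 counts in the Cre group and 7486359 to 16372260 in the no-Cre group. Levels are CPM (counts scaled to the library's total) or, between genes, the authors' FPKM (the same per kilobase of gene length), as mean ± SD with n = 3 libraries a group. The targeted gene Tgfbr1 had 46, 0 and 793 counts in the Cre libraries and 1, 0 and 1538 in the no-Cre libraries, and these counts cover the whole gene, not the floxed part. Summed over 13 ganglion cell markers, the Cre libraries held 2792 to 3721 CPM and the no-Cre libraries 610.7 to 4777 CPM. No-Cre library 3 had the lowest sum, and 5 of the 13 markers reached 10 counts in it, against 7 to 10 in the other libraries. The markers differed there: it had 0 counts of Slc17a6 and 1 of Thy1, but 4203 of Rbpms and 1394 of Pou4f1. It held 5779 CPM of 9 endothelial markers where the other 5 libraries held 35.9 to 741.3 CPM. A gene counted as detected at 10 counts, and all genes of the table were detected at 25.8% to 32.2% in the Cre libraries and at 19.0% to 21.7% in the no-Cre libraries.

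No mitoribosomal gene passed the comparison of Cre with no Cre. Of the 77 members, 65 (43 large, 22 small) had enough counts to be tested, and edgeR's quasi-likelihood test called 0 of them at a Benjamini-Hochberg adjusted p under 0.05, as it called 0 of all 5727 genes tested (0%). At an unadjusted p under 0.05 it gave 4 members higher in Cre (2 Mrpl-named, 2 Mrps-named) and 0 lower, against 4.49% of all tested genes higher and 0.419% lower. These were Mrps17, Mrps30, Mrpl34 and Mrpl3. DESeq2 called 7 of 58 members higher and 0 lower (all genes 12.6% and 2.39%), and limma voom called 4 of 65 higher and 0 lower (all genes 1.43% and 0.105%). Without no-Cre library 3 the count at an unadjusted p under 0.05 was 8 higher, without no-Cre library 2 it was 7 and without Cre library 2 it was 2, and 0 members passed the adjusted threshold in any of the 6 fits that left out 1 library. The log2 fold change was positive for 27 of 43 large and 15 of 22 small subunit members, against 54.2% of all genes tested.

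Beside those counts stands how the members were measured. Of the 462 values (77 genes in 6 libraries), 127 were exactly 0, 38 lay between 1 and 9 counts, 15 between 10 and 99, and 282 were at 100 counts or more. A member was thus mostly either well counted in a library or close to 0 in it, and 66 of the 76 members detected in some library were detected in only 1 to 5 of the 6, against 90% of all genes detected in some library. The remaining 10 members reached 10 counts in all 6 libraries, against 9.99% of those genes and 5.34% of all genes in the table. Mrpl2 alone was detected in no library, as were 46.6% of all genes. Fewer cells carrying an RNA and less RNA per cell cannot be told apart in bulk libraries, and the labels give an input of 1 ng of total RNA. The heat map of all members shows the pattern.

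**Figure D1:**
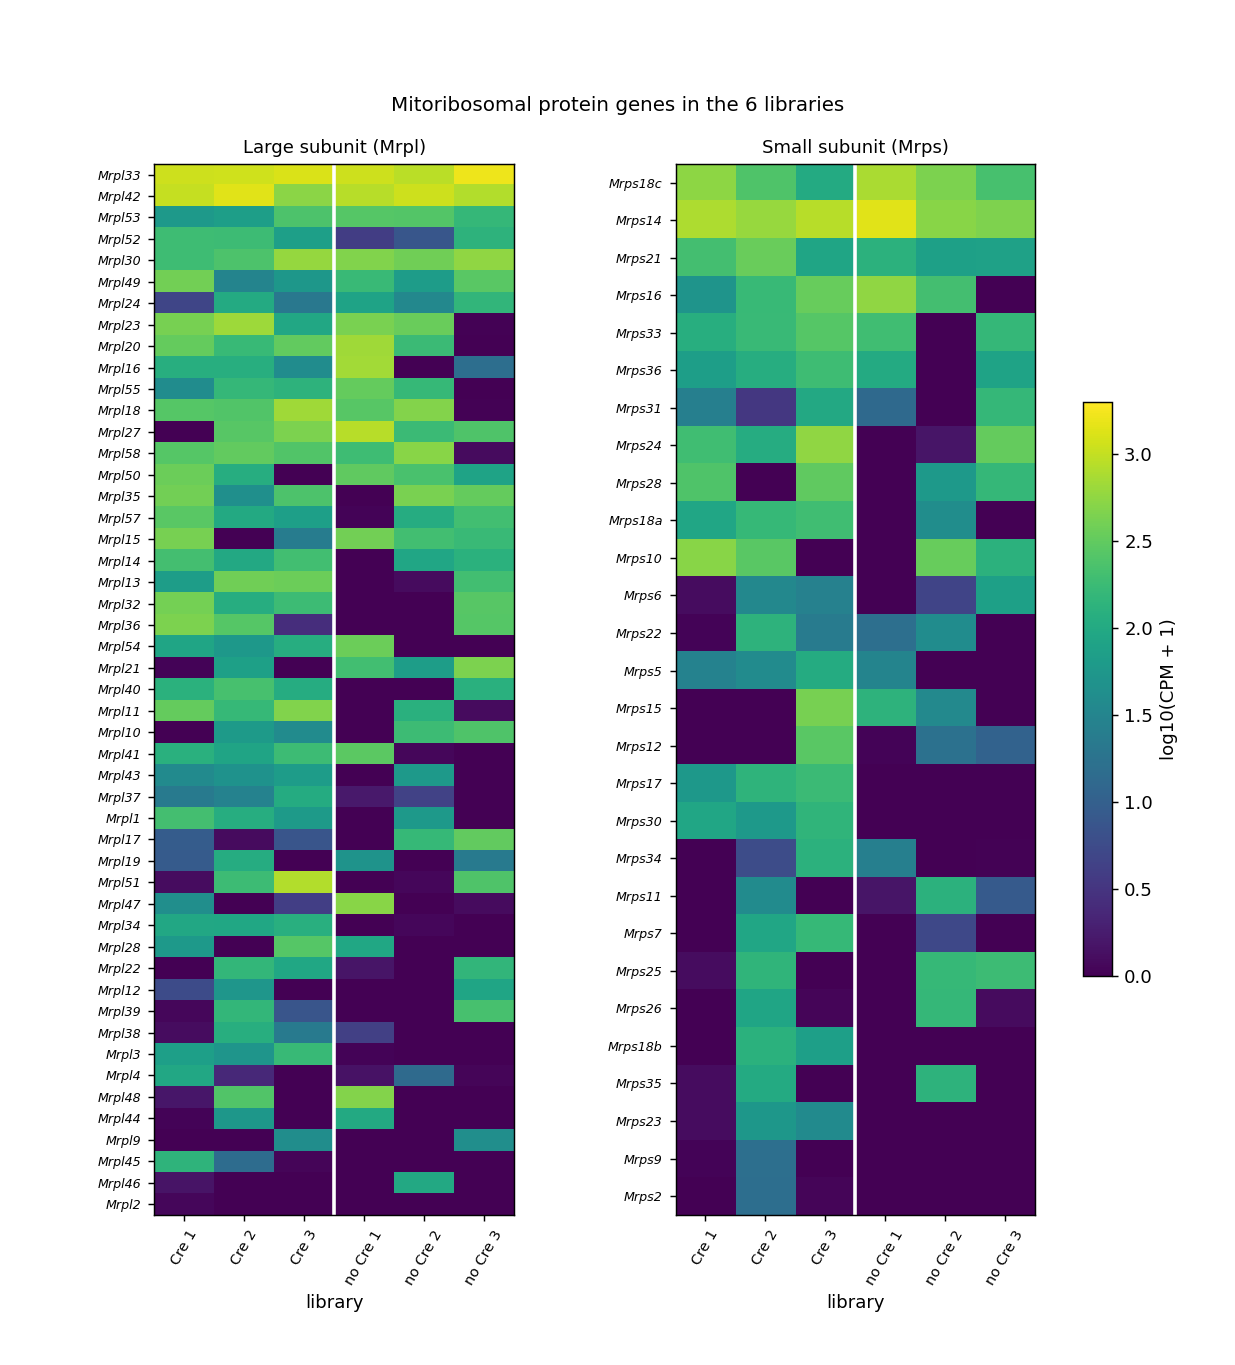
Level of each of the 49 large subunit (left) and 28 small subunit genes (right) in the 3 Cre and 3 no-Cre libraries, as log10(CPM + 1), ordered by the number of libraries with 10 counts or more and then by mean FPKM. The 10 genes at the top of the panels (7 large, 3 small) were detected in every library, and most others alternate between high values and 0 from library to library.

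The members with the highest levels per length were both of the large subunit. Mrpl33, a small protein with a bacterial counterpart (mm10 chromosome 5, 31613951 to 31622644), was at 1111, 1148 and 1284 CPM in Cre libraries 1 to 3 and 1123, 919 and 1649 CPM in no-Cre libraries 1 to 3. The groups overlapped fully, and the log2 fold change was 0.03 ± 0.49 (edgeR, adjusted p = 1.00 after rounding). After a log2 fold change, ± gives a standard error worked back from edgeR's F statistic, not an SD. It was also the highest member per length, at 2534 ± 195 FPKM in Cre and 2640 ± 808 FPKM in no Cre. Mrpl42, specific to mitochondria, followed at 1436 ± 627 FPKM in Cre and 1382 ± 221 FPKM in no Cre. Its levels were 1035, 1396 and 536 CPM in the Cre libraries and 891, 1125 and 839 CPM in the no-Cre libraries, a log2 fold change of 0.20 ± 0.56. Neither sign is fixed: with DESeq2's size factors in edgeR the log2 fold changes were -0.26 for Mrpl33 and -0.10 for Mrpl42.

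A further 5 large subunit genes were detected in all 6 libraries. Mrpl30 was at 188.8, 238.4 and 597 CPM in the Cre libraries and 477, 381 and 567 CPM in the no-Cre libraries. Mrpl53, specific to mitochondria, was at 59.0, 69.3 and 237.7 CPM in the Cre libraries and 266, 257.5 and 157 CPM in the no-Cre libraries. Mrpl49 had 5533, 633 and 442 counts in the Cre libraries against 1972, 493 and 4592 counts in the no-Cre libraries. All of these overlapped between the groups, and Cre library 1 was low for some and high for others. Mrpl24 had 54, 2207 and 162 counts in the Cre libraries and 954, 250 and 2383 counts in the no-Cre libraries. Mrpl52 was at 189, 184 and 71.5 CPM in the Cre libraries and 2.93, 6.68 and 133 CPM in the no-Cre libraries, so 2 of 3 no-Cre libraries lay below every Cre library and the third lay among them. Their log2 fold changes in edgeR lay between -1.01 ± 2.94 (Mrpl24) and 1.81 ± 2.82 (Mrpl52), inside their errors. Of the 5 large subunit genes with the highest mean FPKM, Mrpl23, which lies where new chains leave the ribosome, was at 422, 647 and 92.9 CPM in the Cre libraries and 428, 350.2 and 0.0611 CPM in the no-Cre libraries. Mrpl20, also in that set, was at 328, 166 and 324 CPM in the Cre libraries and 665, 179 and 0 CPM in the no-Cre libraries.

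For 6 large subunit genes every Cre library lay above every no-Cre library. Mrpl34, with a bacterial counterpart (chromosome 8, 71464926 to 71465753), had 1307, 1958 and 963 counts in the Cre libraries and 0, 1 and 0 in the no-Cre libraries. Its level was 102 ± 14.8 CPM in Cre, with little spread between libraries, and the ratio of depth-scaled group totals was 3474 (95% counting interval 623 to 137262). Mrpl3, which reaches towards the peptidyl transferase centre (chromosome 9, 105053268 to 105077466), had 1007, 1105 and 1355 counts in the Cre libraries and 1, 0 and 0 in the no-Cre libraries, a ratio of 2849 (95% counting interval 511 to 112562). Both had an unadjusted p of 0.0229 and 0.0231 in that order and an adjusted p of 0.781 in edgeR. DESeq2 called Mrpl34 and Mrpl3 (adjusted p = 0.00279 and 0.00287), as did limma voom (adjusted p = 0.0337 and 0.0353). Mrpl11, of the stalk base where elongation factors bind, was at 326, 159.8 and 479 CPM in the Cre libraries and 0, 124 and 0.244 CPM in the no-Cre libraries. Mrpl37 had 294, 589 and 855 counts in the Cre libraries and 8, 26 and 0 in the no-Cre libraries.

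The separation was narrow for the other 2. Mrpl1 was at 207.5, 112 and 61.5 CPM in the Cre libraries and 0, 60.4 and 0 CPM in the no-Cre libraries. Mrpl45, a protein at the membrane-facing exit of the tunnel, had 1937, 288 and 1 counts in the Cre libraries and 0 in every no-Cre library, at least 609.7-fold higher over the group (floor of 3 counts, counting error only), and edgeR's filter left it untested, whereas DESeq2 called it (adjusted p = 0.00857). Among tested genes every Cre library lay above for 8 of 65 members (5 large, 3 small) and for 10.4% of all genes, and below for 0 members and 2.3% of all genes. Over genes with a mean count of at least 20, every Cre library lay above for 10 of 76 members (6 of 48 large, 4 of 28 small) and for 8.48% of all genes, and below for 0 of 76 members and 1.54% of all genes. The edgeR log2 fold changes of Mrpl1, Mrpl11 and Mrpl37 were 3.06 ± 3.37, 3.28 ± 2.55 and 5.37 ± 3.62, and none passed.

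Other large subunit genes varied widely between libraries of one genotype. Mrpl17 had 113, 5 and 52 counts in the Cre libraries and 0, 1224 and 5325 in the no-Cre libraries, and Mrpl21 had 1, 1553 and 0 counts in the Cre libraries and 2281, 510 and 7324 in the no-Cre libraries. These had the most negative log2 fold changes among tested large subunit genes with Mrpl47, at 41.2, 0 and 3.09 CPM in the Cre libraries and 510.4, 0 and 0.244 CPM in the no-Cre libraries, where no-Cre library 1 alone was high. Mrpl12, the stalk protein that in human cells also binds the mitochondrial RNA polymerase, had 65, 1120 and 0 counts in the Cre libraries and 0, 0 and 1397 in the no-Cre libraries. Mrpl58, a peptidyl-tRNA hydrolase in human mitochondria, was at 266, 317 and 250.4 CPM in the Cre libraries and 188, 515 and 0.244 CPM in the no-Cre libraries, with the Cre libraries close together. Mrpl51 had 4, 3853 and 6640 counts in the Cre libraries and 0, 1 and 3992 in the no-Cre libraries. Mrpl2, part of the catalytic core, reached 2 counts in Cre library 1 and was at 0 in the other 5 libraries, so its level was not detectable at this depth (a count of 0 allows 0.142 to 0.401 CPM).

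Of the small subunit, 3 of 28 genes were detected in all 6 libraries, and of the large subunit 7 of 49. Mrps14 (chromosome 1, 160195215 to 160201186) was at 792, 610.2 and 873 CPM in the Cre libraries and 1427, 512.5 and 458 CPM in the no-Cre libraries, a log2 fold change of -0.06 ± 0.66. The highest and both lowest values belonged to the no-Cre group, whose range enclosed that of Cre. Mrps21 was at 202, 355 and 86.9 CPM in the Cre libraries and 132, 74.7 and 77.4 CPM in the no-Cre libraries, a log2 fold change of 1.25 ± 2.23. Mrps18c was at 540.5, 243.7 and 102 CPM in the Cre libraries and 769.7, 449 and 220.0 CPM in the no-Cre libraries, a log2 fold change of -0.56 ± 1.04. Per length Mrps18c led the small subunit, at 589 ± 445 FPKM in Cre and 955 ± 550.1 FPKM in no Cre, ahead of Mrps14 at 340.3 ± 60.4 FPKM in Cre and 359 ± 244 FPKM in no Cre, so these neighbours did not differ beyond their spread. Mrps16, with a bacterial counterpart, was at 50.7, 167 and 338 CPM in the Cre libraries and 557, 208 and 0 CPM in the no-Cre libraries. Mrps24 had 2698, 2319 and 4607 counts in the Cre libraries and 0, 4 and 5385 in the no-Cre libraries.

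Mrps17 and Mrps30 were counted in every Cre library and in no no-Cre library. Mrps17, a primary RNA-binding protein in its bacterial form (chromosome 5, 129715450 to 129718712), had 792, 2968 and 1431 counts in the Cre libraries and 0 in all 3 no-Cre libraries. Its level was 125 ± 61.5 CPM in Cre, at least 1422-fold higher than in no Cre (floor of 3 counts over the group). This bound and that of Mrps30 cover counting error only, not the spread between libraries. Mrps30 (chromosome 13, 118380110 to 118387252) had 1255, 1252 and 1153 counts in the Cre libraries and 0 in all 3 no-Cre libraries, 97.2 ± 42.0 CPM and at least 1002.5-fold higher in Cre. Despite its name, Mrps30 sits in the large subunit in mammalian structures. The edgeR adjusted p was 0.681 for both, with unadjusted p of 0.0111 and 0.0134, and both were called by DESeq2 (adjusted p = 0.00253 and 0.00274) and by limma voom (adjusted p = 0.0337 for each). Detection in all 3 Cre libraries and in no no-Cre library occurred for 4 of 77 members, the 4 at an unadjusted p under 0.05, and for 1.22% of all genes, or 2.29% of the genes detected in some library. Promoters are shown for Mrps17 and Mrps30, the members with the clearest on and off pattern. Those of Mrpl33, the highest member, and Mrps21, a member in every library with 2 motifs, follow. Each window runs from 250 bases before to 50 after a RefSeq start (GRCm38.p6, the assembly called mm10). For Mrps17 that start lies downstream of the 129715450 given above. The windows are at chr5:129715247-129715546 (plus strand), chr13:118387203-118387502 (minus strand), chr5:31613701-31614000 (plus strand) and chr3:95871465-95871764 (minus strand), 5′ to 3′, with motif matches in capitals.
Mrps17: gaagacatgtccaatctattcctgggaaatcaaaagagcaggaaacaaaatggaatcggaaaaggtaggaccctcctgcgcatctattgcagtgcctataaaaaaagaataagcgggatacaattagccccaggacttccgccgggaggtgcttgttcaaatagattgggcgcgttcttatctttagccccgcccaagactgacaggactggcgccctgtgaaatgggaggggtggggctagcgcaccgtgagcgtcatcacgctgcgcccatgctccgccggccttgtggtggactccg
Mrps30: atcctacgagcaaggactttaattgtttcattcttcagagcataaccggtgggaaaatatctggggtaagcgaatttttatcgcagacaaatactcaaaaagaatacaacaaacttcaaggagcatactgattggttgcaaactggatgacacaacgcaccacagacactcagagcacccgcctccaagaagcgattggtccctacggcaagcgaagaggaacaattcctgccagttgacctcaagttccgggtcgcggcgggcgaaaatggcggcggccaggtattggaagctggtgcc
Mrpl33: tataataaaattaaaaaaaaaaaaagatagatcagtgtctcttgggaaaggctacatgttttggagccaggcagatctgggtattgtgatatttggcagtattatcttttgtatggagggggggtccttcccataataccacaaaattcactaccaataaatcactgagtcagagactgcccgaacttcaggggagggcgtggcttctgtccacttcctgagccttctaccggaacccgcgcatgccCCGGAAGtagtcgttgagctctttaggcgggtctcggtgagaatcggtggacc
Mrps21: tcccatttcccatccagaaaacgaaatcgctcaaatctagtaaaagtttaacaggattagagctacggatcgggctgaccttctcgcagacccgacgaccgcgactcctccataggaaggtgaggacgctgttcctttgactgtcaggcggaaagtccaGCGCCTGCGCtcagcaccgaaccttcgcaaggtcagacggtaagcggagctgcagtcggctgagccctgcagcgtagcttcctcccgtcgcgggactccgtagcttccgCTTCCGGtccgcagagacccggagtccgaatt

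The motifs searched, each on both strands, were the 7 letters CCGGAAG of ETS factors, an NRF1 motif of 10 letters and a YY1 motif of 11 letters, and matches of different motifs could overlap. In Mrps21 the first run in capitals is the NRF1 motif and the second is the ETS motif read from the other strand, and the run in Mrpl33 is the ETS motif. The Mrps17 and Mrps30 windows held no match to the 3 motifs as searched, and near matches were not counted in any window. The motifs belong to factors known to regulate nuclear genes of mitochondria. RefSeq windows were found for 68 of the 77 members (74 windows). The ETS motif was in 33.8% of members' windows and 8.86% of all 32851 windows, the NRF1 motif in 17.6% and 4.60%, and the YY1 motif in 5.41% and 0.633%. At least 1 motif was in 25 of 48 large and 12 of 26 small subunit windows, against 13.0% of all windows. The median GC content was 58.5% for members and 52.7% for all windows, which include those of noncoding genes. The median number of CG dinucleotides in a window was 21 for members and 7 for all windows. The motif shares were not adjusted for either difference, and its part in them was not tested. The members detected in all 6 libraries had a motif in 6 of 10 windows and the rest in 31 of 64.

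Mrpl46 and Mrps11, genes of different subunits, lie head to head on chromosome 7 with overlapping ends in GENCODE vM21. Mrpl46 had 7, 0 and 0 counts in the Cre libraries and 0, 722 and 0 in the no-Cre libraries, and Mrps11 had 0, 797 and 0 counts in the Cre libraries and 6, 989 and 126 in the no-Cre libraries. Both were highest in no-Cre library 2, and only Mrps11 was counted in Cre library 2. Their promoter windows overlap, at chr7:78782881-78783180 (plus strand, with the YY1 motif in capitals) and chr7:78783040-78783339 (minus strand).
Mrps11: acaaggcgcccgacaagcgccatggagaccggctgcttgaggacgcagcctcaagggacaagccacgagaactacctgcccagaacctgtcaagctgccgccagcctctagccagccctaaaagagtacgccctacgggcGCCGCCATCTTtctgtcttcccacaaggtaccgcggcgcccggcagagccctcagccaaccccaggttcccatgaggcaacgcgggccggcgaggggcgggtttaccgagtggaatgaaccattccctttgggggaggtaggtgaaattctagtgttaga
Mrpl46: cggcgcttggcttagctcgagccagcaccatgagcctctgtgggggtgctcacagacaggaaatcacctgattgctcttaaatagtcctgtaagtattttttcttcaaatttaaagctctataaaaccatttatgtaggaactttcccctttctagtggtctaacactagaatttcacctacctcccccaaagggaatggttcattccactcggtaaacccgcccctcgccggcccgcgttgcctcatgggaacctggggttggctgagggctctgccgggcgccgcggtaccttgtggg

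The 3 Mrps18 paralogs, which descend from a single bacterial protein, had different patterns of detection. Mrps18c was in every library, as above. Mrps18a, which sits in the large subunit in mammalian structures, had 1246, 3452 and 1569 counts in the Cre libraries and 0, 302 and 0 in the no-Cre libraries, at 149 ± 53.7 CPM in Cre and 13.4 ± 23.3 CPM in no Cre (log2 fold change 3.76 ± 3.43). Every Cre library lay above every no-Cre library for Mrps18a. Mrps18b had 0, 2713 and 586 counts in the Cre libraries and 0 in every no-Cre library, at least 903.7-fold higher over the group (counting error only), yet Cre library 1 shared the 0. Mrps23 had 4, 1153 and 297 counts in the Cre libraries and 0 in every no-Cre library, at least 398-fold higher (counting error only). Both were left untested by edgeR's filter and called by DESeq2, with an adjusted p of 0.0115 for Mrps18b and 0.0101 for Mrps23. With Mrpl45, Mrps17 and Mrps30, that made 5 of 77 members at 0 in every no-Cre library with 10 counts or more in at least 2 Cre libraries, against 2.42% of all genes and 4.53% of the genes detected in some library. The converse held for 0 of 77 members, 0.254% of all genes and 0.476% of the detected genes.

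**Figure D2:**
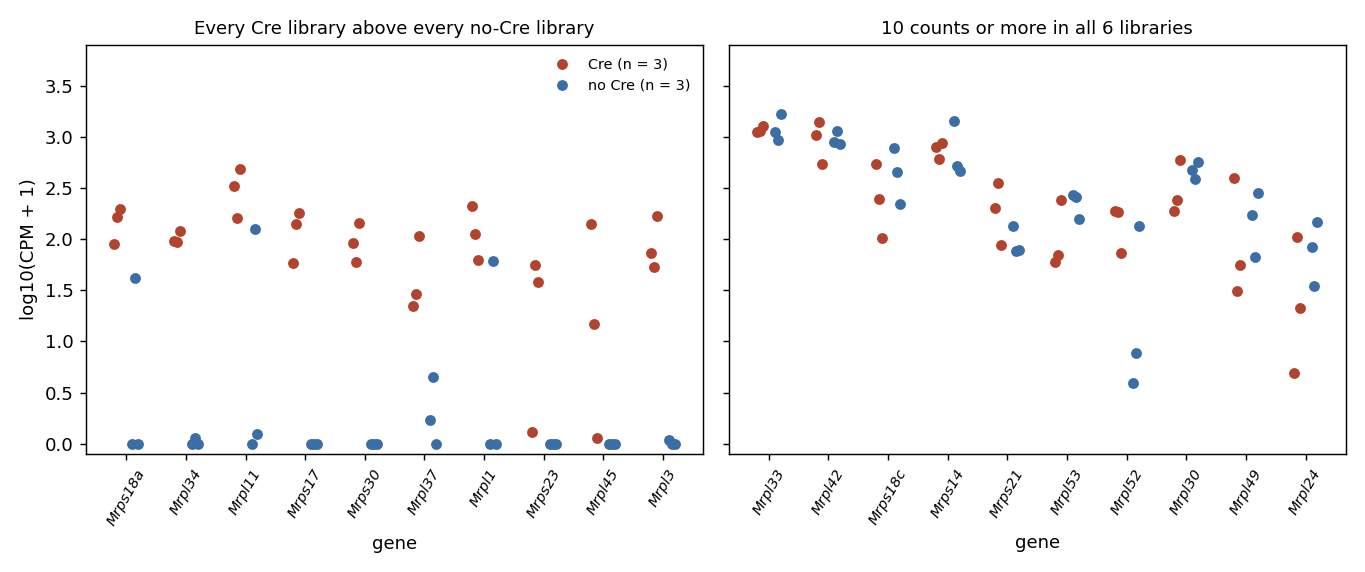
Level as log10(CPM + 1) in each Cre (red) and no-Cre (blue) library for the 10 members whose Cre libraries all lay above the no-Cre libraries (left) and the 10 members with 10 counts or more in all 6 libraries (right), each point 1 library. On the left the blue points sit mostly at 0, and for Mrps23 and Mrpl45 a red point lies next to them, whereas on the right the colours mix.

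Further small subunit genes varied by library. Mrps2 and Mrps9 were well counted in Cre library 2 alone, with 310 and 313 counts there, at most 1 in the other Cre libraries and 0 in every no-Cre library. Mrps12, at the decoding centre, had 0, 0 and 2335 counts in the Cre libraries and 1, 121 and 162 in the no-Cre libraries. Mrps7, of the head of the subunit, had 0, 1885 and 1298 counts in the Cre libraries and 0, 31 and 0 in the no-Cre libraries. Mrps25 had 4, 3044 and 0 counts in the Cre libraries and 0, 1225 and 3019 in the no-Cre libraries, and Mrps28 had 3456, 0 and 2483 against 0, 434 and 2562. Mrps36, which despite its name is a subunit of the oxoglutarate dehydrogenase complex, was at 69.3, 114 and 187 CPM in the Cre libraries and 104, 0 and 81.8 CPM in the no-Cre libraries. Which library held the 0 changed from gene to gene.

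More members were detected in every Cre library (51, 67 and 60 of 77) than in any no-Cre library (36, 43 and 40). Cre libraries 1, 2 and 3 detected 37, 42 and 39 of the 49 large subunit genes, and no-Cre libraries 1, 2 and 3 detected 25, 27 and 27. For the small subunit the numbers were 14, 25 and 21 of 28 in the Cre libraries and 11, 16 and 13 in the no-Cre libraries, so Cre library 1 lay below no-Cre library 2. The ratio of group means was 1.49 for the large and 1.5 for the small subunit, beside 1.45 for all genes of the table, and it was 1.48 and 1.5 (all genes 1.43) after thinning every library to 7486359 counts. Detection in more Cre than no-Cre libraries occurred for 45 of 77 members and detection in fewer for 9, and among all genes detected in some library these shares were 54.8% and 18.9%. The 9 were Mrpl15, Mrpl21, Mrpl27, Mrpl46, Mrpl50, Mrps11, Mrps12, Mrps15 and Mrps25, named after their values were seen.

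The summed level of the large subunit differed little between the groups although fewer of its genes were detected without Cre. It was 8455, 8277 and 8525 CPM in Cre libraries 1 to 3 and 9267, 6475 and 7585 CPM in no-Cre libraries 1 to 3, a ratio of means of 1.08. The SD was 128 CPM in Cre and 1405 CPM in no Cre, all Cre libraries lay inside the range of the no-Cre libraries, and with DESeq2's size factors the ratio was 0.944. The small subunit held 3026, 3306 and 4604 CPM in the Cre libraries and 3402, 2368 and 2040 CPM in the no-Cre libraries, a ratio of 1.40 that was 1.22 without Cre library 3 and 1.65 without no-Cre library 1. These sums follow the names, so Mrps18a, Mrps30 and Mrps36 are in that of the small subunit. The groups overlapped for both subunits. The large subunit held 2.79, 2.504 and 1.85 times the CPM of the small subunit in the Cre libraries and 2.72, 2.73 and 3.72 times in the no-Cre libraries, with the endothelial-rich no-Cre library 3 the highest, and the part of those cells in the ratio was not tested. The 5 highest members took 34.9%, 36.1% and 32.3% of the summed level in the Cre libraries and 40.1%, 40.2% and 41.1% in the no-Cre libraries, without overlap and with no test run. Among detected members the median level was 126, 111 and 132 CPM in the Cre libraries and 269, 134 and 165 CPM in the no-Cre libraries. Among all detected genes it was also higher without Cre, at 41.2, 46.9 and 75.5 CPM in the Cre libraries and 89.6, 96.6 and 95.1 CPM in the no-Cre libraries.

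**Figure D3:**
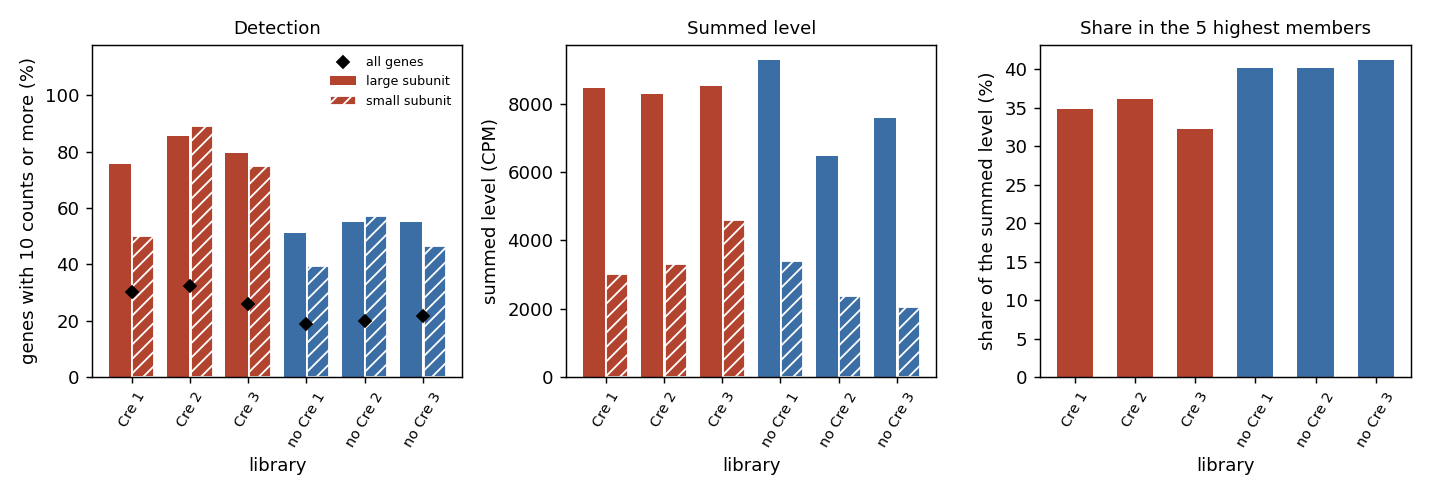
Members with 10 counts or more as a share of each subunit, with all genes as diamonds (left), the summed CPM (middle) and the share of the summed CPM in the 5 highest members (right), by library, in red for Cre and blue for no Cre, with plain bars for the large and hatched bars for the small subunit (the right panel covers both together). Detection of the large subunit and of all genes is higher in every Cre library than in any no-Cre library, that of the small subunit overlaps, the summed levels of the groups overlap, and the share of the 5 highest members is 32.3% to 36.1% in Cre and 40.1% to 41.1% in no Cre.

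The median log2 fold change was 0.45 over the 43 tested large subunit genes and 1.21 over the 22 small, beside 0.14 over all tested genes. With DESeq2's size factors in edgeR the 3 medians were 0.20, 1.02 and -0.13, a shift of the whole table. The place of the large subunit against all genes was not stable. Its median lay below theirs in DESeq2 (0.42 against 0.64), without the filter on low counts (0.17 against 1.40), without no-Cre library 2 (0.17 against 0.45) and without no-Cre library 3 (0.49 against 0.56). The small subunit median lay below that of all genes without the filter (1.31 against 1.40), and without Cre library 3 the small subunit median was 0.41. These medians cover only members with enough counts in enough libraries for edgeR's filter, and 12 members (6 of each subunit) are not in them. Across the 77 members, which share libraries and depth, the Pearson correlation of log2(CPM + 1) between libraries was 0.25 to 0.42 within Cre, 0.10 to 0.32 within no Cre and 0.15 to 0.32 between the groups. Over all genes it was 0.57 to 0.62 within Cre, 0.45 to 0.48 within no Cre and 0.50 to 0.57 between the groups.

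Related genes of mitochondrial translation were sparse as well, and none of those tested passed in edgeR. Of the ribosomal proteins with other names, all 4 of the small subunit and 1 of the large were in the table. Aurkaip1 of the small subunit had 3435, 1862 and 4228 counts in the Cre libraries and 4, 1678 and 124 in the no-Cre libraries, and Chchd1 had 8975, 11128 and 120 against 0, 4353 and 2923. Gadd45gip1 of the large subunit was at 134 ± 39.2 CPM in Cre and 65.8 ± 57.7 CPM in no Cre (log2 fold change 1.23 ± 2.81). Dap3, the GTP-binding protein of the small subunit, had 1198, 94 and 0 counts in the Cre libraries and 0, 2858 and 431 in the no-Cre libraries.

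Of the mitoribosome assembly factors 13 were tested, 8 with a positive and 5 with a negative log2 fold change, of the translation factors 4 (2 and 2), of the mitochondrial aminoacyl-tRNA synthetases 6 (2 and 4) and of the regulators 4 (2 and 2). None had an unadjusted p under 0.05. The translation factor list includes Slirp, a stabiliser of mitochondrial messenger RNAs, at 376 ± 42.5 CPM in Cre and 102 ± 143 CPM in no Cre, with every Cre library above every no-Cre library (log2 fold change 1.83 ± 1.61). Its partner Lrpprc had 3, 298 and 1195 counts in the Cre libraries and 1037, 0 and 1 in the no-Cre libraries. Among assembly factors Mrm3, a ribosomal RNA methyltransferase, had 43, 412 and 381 counts in the Cre libraries and 64, 5 and 8 in the no-Cre libraries. Among synthetases Iars2, for isoleucine, had 11, 0 and 8 counts in the Cre libraries and 9, 0 and 2654 in the no-Cre libraries. Of the regulators Gabpb1, a subunit of an ETS complex, had 1473, 2034 and 152 counts in the Cre libraries and 1, 216 and 1 in the no-Cre libraries. Yy1 went the other way, with 215, 518 and 120 counts in the Cre libraries and 4, 0 and 5121 in the no-Cre libraries. Nrf1, left untested by edgeR's filter, had 1, 0 and 0 counts in the Cre libraries and 2672, 4 and 0 in the no-Cre libraries. Mitochondrial DNA encodes the proteins that mitoribosomes make. Their RNAs summed to 61449, 51242 and 45662 CPM in the Cre libraries and 90835, 55392 and 34819.99 CPM in the no-Cre libraries. COX2, COX3, ATP6, ATP8, ND3 and ND4L added little, each at 61.2 CPM or less in every library, and the cause was not tested. All 13 genes were tested and 5 had a positive log2 fold change. Of these COX1, a catalytic subunit of cytochrome c oxidase, was at 7372 ± 2073 CPM in Cre and 11214 ± 1172 CPM in no Cre, with every Cre library below every no-Cre library (log2 fold change -0.48 ± 0.28, adjusted p = 1.00 in edgeR after rounding).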

How the data were processed

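Gene expression of retinal ganglion cells was measured by bulk RNA sequencing in 6 libraries, 3 per genotype. Per the labels' protocols, the RNeasy Micro kit gave the RNA and the VAHTS Universal V6 kit the libraries. Per the submitters' processing notes, the build was mm10 and the tools were HTSeq, HISAT2, fastp, DESeq2 and R 3.2.0, with no role stated. Neither strand setting nor annotation is given in those sources. In GENCODE vM21, 35 of the 77 members overlap a gene on the opposite strand, counting whole gene spans and any length of overlap. Without strand, reads from the shared stretch cannot be told apart. Reads shared with pseudogenes make members uncertain too.

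The authors deposited raw counts and FPKM values for the same genes, and there were 0 columns of other samples. CPM used the column totals, and FPKM was used for levels between genes. All genes were fitted with edgeR 4.0.16 (TMM, its default filter, Benjamini-Hochberg adjustment, robust quasi-likelihood test) on genotype alone in R 4.3.3. The alternatives were limma 3.58.1 (voom, log2(FPKM + 1) and log2(FPKM + 0.1)) and DESeq2 1.42.0, with other scalings, no filter, a replicate block and each library left out in turn. The main edgeR fit, the replicate block, limma voom, limma on log2(FPKM + 1) and DESeq2 were also run on simulated counts. The other settings were not.

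The members and lists were chosen with earlier results of these data known. Members named were those with an unadjusted p under 0.05, those with 10 counts in all 6 libraries, those at 0 in every library of a genotype with 10 counts in at least 2 of the other, the 5 highest by FPKM of each subunit, those whose groups did not overlap at a mean count of 20 or more, and Mrps18a, Mrps18b, Mrps18c, Mrps30 and Mrps36, 26 in all. Of related lists, up to 3 genes with the smallest unadjusted p qualified. Other genes were named after their values were seen. Fold bounds take 3 counts for a group at 0, intervals are exact binomial, and both cover counting error only. Promoter sequences are from RefSeq GRCm38.p6. Analyses other than edgeR, limma and DESeq2 used Python 3.11.15.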

Additional observations from a re-analysis of the deposited data

How the results depend on the processing

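No member passed an adjusted p under 0.05 with edgeR under any scaling, filter, replicate block or left-out library, nor with limma on FPKM, whereas DESeq2 called 7 and limma voom 4, all higher in Cre. The number higher at an unadjusted p under 0.05 was 4, with 8 in DESeq2, 13 in limma voom, 12 with log2(FPKM + 1), 12 with log2(FPKM + 0.1), 2 with the replicate block and 2 to 8 with 1 library left out. The number lower was 0, with 1 in limma voom, 1 with each FPKM setting and 0 to 1 with 1 library left out. The median log2 fold change of the large subunit was 0.45 (all genes 0.14), with 0.42 in DESeq2 (all genes 0.64), 0.17 without the filter (1.40), 3.43 in limma voom (1.58), 1.84 and 2.92 on FPKM with pseudocounts of 1 and 0.1 (0.47 and 0.93), 1.68 with the replicate block (1.10) and 0.0774 to 1.00 with 1 library left out. That of the small subunit was 1.21, with 1.02 in DESeq2, 1.31 without the filter, 1.69 in limma voom, 1.73 with the replicate block and 0.41 to 1.43 with 1 library left out. Replicate numbers gave no sign of pairing: deviations of same-numbered libraries correlated at -0.02, 0.03 and -0.01. With values that vary this much between libraries, the check could not show that there was none. The labels state no pairing, so the block is only an alternative.

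Signs near 0 turned. The log2 fold change of Mrpl33 was -0.26 with DESeq2's size factors, -0.0702 with column totals, -0.27 in DESeq2, -0.17 in voom, -0.0308 without the filter and -0.0185 with each FPKM setting. That of Mrpl42 was -0.10 with DESeq2's size factors, -0.11 in DESeq2 and -0.0392 and -0.0393 on FPKM with pseudocounts of 1 and 0.1. That of Mrpl49 was -0.26 with DESeq2's size factors, -0.12 with column totals, -0.29 in DESeq2, -1.20 in voom, -0.73 and -0.76 on FPKM and -0.67 with the replicate block. That of Mrps14 was 0.24 in voom, 0.11 with each FPKM setting and 0.23 with the replicate block. With 1 library left out the ranges were -0.25 to 0.24 for Mrpl33, -0.0485 to 0.51 for Mrpl42, -2.11 to 0.62 for Mrpl49, -0.43 to 0.87 for Mrps14 and -1.51 to 0.20 for Mrps18c. The cause was not tested. Mrpl3, Mrpl34, Mrps17 and Mrps30 kept a positive sign under every setting. The common biological coefficient of variation was 2.04.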

Other observations

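Mrpl36 overlaps Ndufs6, a complex I subunit, on the opposite strand. Ndufs6 had 9889, 10552 and 2725 counts in the Cre libraries and 2968, 5224 and 2589 in the no-Cre libraries, whereas Mrpl36 had 6231, 5591 and 14 in the Cre libraries and 0, 0 and 4416 in the no-Cre libraries. Gene lengths were not given and were worked back from the authors' counts and FPKM. The 10 members detected in all 6 libraries had a median length of 654.5 bases (412 to 2405). It was 1496 bases for the 55 detected in 3 to 5 libraries and 1614.5 bases for the 12 detected in at most 2. These lengths were not set beside those of all genes.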
